A study of Danio rerio with 12 samples.

Results

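The mitochondrial ribosome, or mitoribosome, translates the few messages of the mitochondrial genome, which encode core subunits of the respiratory chain and of the ATP synthase. Its RNA comes from the mitochondrial genome, whereas its proteins are encoded in the nucleus, made in the cytosol and imported. The large subunit (mrpl genes) joins amino acids and holds the tunnel through which the new protein leaves, and the small subunit (mrps genes) binds the message and decodes it. Some of these proteins have a bacterial counterpart and others are known only from mitochondria. The heart is rich in mitochondria and depends on this translation for its respiratory chain.

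The genes described here are those whose symbol begins with mrpl or mrps, taken from probe sets to which the platform annotation gives a single gene. They number 59 of 8793 genes with a named probe set, 38 mrpl and 21 mrps, and are measured by 69 probe sets. Each gene is represented by the probe set with the highest mean, and the 10 other probe sets, of 9 genes, are given separately. All 59 symbols are current in the RefSeq gene table. For the summaries below, 36 were classed as having a bacterial counterpart and 23 as having none. The 23 include mrpl47, whose protein does have a bacterial counterpart, so this split is approximate. Not every mitoribosomal gene is covered: mrpl10, mrpl11, mrpl58 and mrps27 are examples for which the rule found no probe set.

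The study used adult zebrafish of the AB strain, given an intraperitoneal injection 1 day ahead of surgery. TCDD fish received 70 ng/g of TCDD, a dioxin that activates the aryl hydrocarbon receptor. Controls are labelled as having no treatment, while the protocol names a vehicle. Control 0 hpa and TCDD 0 hpa are unamputated fish, Control 6 hpa and TCDD 6 hpa were collected 6 hours after amputation of the ventricle tip, and Control 7 dpa and TCDD 7 dpa 7 days after it. Each of the 6 groups has 2 Affymetrix arrays, each from 1 pool of 10 ventricle apices, the piece that holds the amputation plane and the regenerate, so the p-values measure the spread between pools. The unamputated groups compare TCDD with control in uncut hearts, since every group was injected, and the amputated groups do so after surgery.

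The apices carried the defining marker of heart muscle: myl7, the atrial and ventricular myosin light chain of the zebrafish heart, lay at a log2 intensity of 12.32 to 13.07 on all 12 arrays. The median log2 intensity of all probe sets was 3.26 to 3.53. TCDD 6 hpa replicate 1 stood apart, with a 99th percentile of 9.88 against 10.41 to 10.64 on the others and a 3′ minus 5′ difference of the actin control of 3.35 against −0.08 to 2.07. The same difference for the gapdh control was 1.12 on this array and 0.52 to 1.96 on the others. The DapX spike control lay at 5.67 to 6.61 on the 7 dpa arrays and at 2.97 to 3.99 elsewhere, so time after surgery and any separate processing of the 7 dpa arrays cannot be told apart. In all 6 groups replicate 1 had the higher actin difference. Counts, medians and lost calls without TCDD 6 hpa replicate 1 are given with the comparisons that include it.

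By their median, mitochondrial ribosomal protein messages were lower in every amputated pool than in every unamputated pool. The median log2 intensity of the 59 genes was 5.94 and 6.34 on the arrays of Control 0 hpa, and 5.74 and 6.35 on those of TCDD 0 hpa. It was 5.41 and 5.18 in Control 6 hpa, and 4.58 and 5.53 in TCDD 6 hpa. It was 5.35 on both arrays of Control 7 dpa, and 5.24 and 5.39 in TCDD 7 dpa. The 4 unamputated medians thus lay above all 8 amputated ones. Of the 59 genes 58 had their highest value on an unamputated array, and 49 had their lowest on TCDD 6 hpa replicate 1. RNA from whole tissue does not separate fewer cells of a type from less RNA per cell, and the 2 cannot be told apart here.

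**Figure D1:**
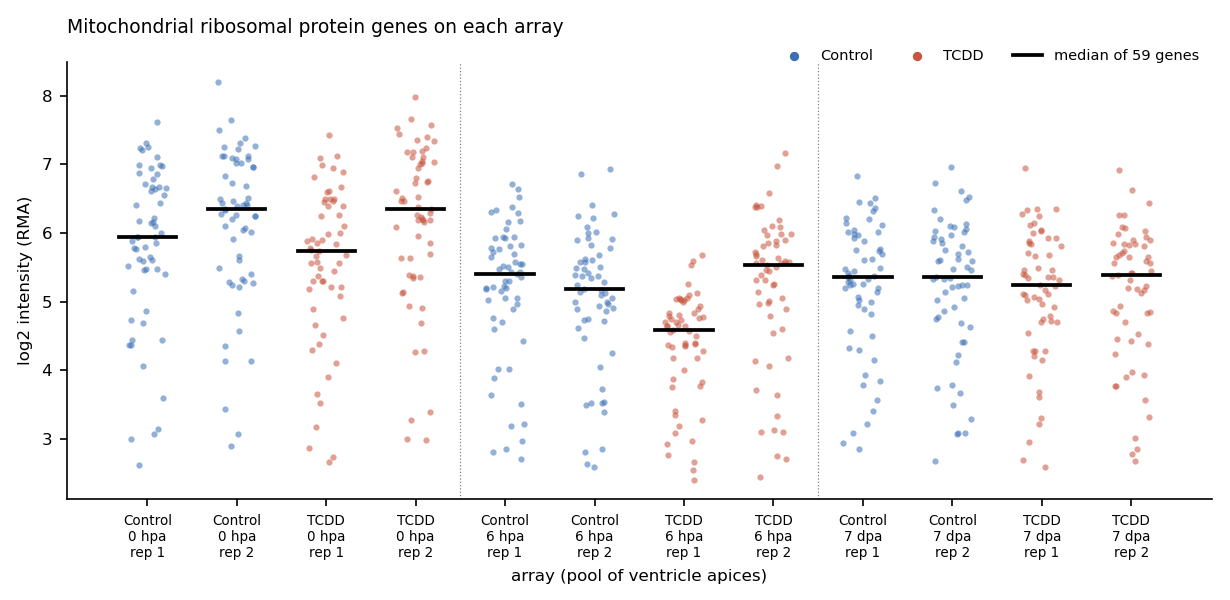
Log2 intensity (vertical axis) of the 59 mitochondrial ribosomal protein genes on each of the 12 arrays (horizontal axis), 1 point per gene, with the median as a bar. The medians are 5.74 to 6.35 on the unamputated arrays, 4.58 to 5.53 at 6 hpa and 5.24 to 5.39 at 7 dpa.

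With control and TCDD averaged, 28 of the 59 genes (47.5%) were lower at 6 hpa than in unamputated hearts and 0 were higher, by limma with Benjamini-Hochberg adjustment over all probe sets and an adjusted p below 0.05. Over all 15502 probe sets 5.54% were called lower and 1.86% higher, and over the 2424 genes with a mean log2 intensity above 5 it was 17.5%. Among the 44 mitochondrial ribosomal protein genes above that level 47.7% were called. The log2 differences of the 59 genes ran from −1.69 to −0.01 with a median of −1.01, against 0.05 over all probe sets and −0.41 over the genes above 5. A total of 31 genes lay below −1, and 51 were lower at an unadjusted p below 0.05 (13.4% of all probe sets). In 41 genes all 4 arrays at 6 hpa lay below all 4 unamputated arrays, a pattern seen in 11% of all probe sets and 28.5% of the genes above 5.

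With TCDD 6 hpa replicate 1 left out the median was −0.76, all 59 genes stayed below 0 and 20 were called, 19 of them among the 28. The 9 calls lost were those of mrpl14, mrpl15, mrpl19, mrpl20, mrpl24, mrpl40, mrps2, mrps15 and mrps35, whose differences were then −1.18 to −0.68 with adjusted p-values of 0.0552 to 0.106. The genes above 5 then had a median of −0.17. With replicate 2 left out instead, the median of the 59 was −1.23, against −0.66 over the genes above 5. The count depended on single arrays throughout. It was smaller without any single array of Control 0 hpa or Control 6 hpa, or without TCDD 0 hpa replicate 2. It was larger without TCDD 6 hpa replicate 2. The share of all probe sets called lower moved the same way, up without TCDD 6 hpa replicate 2 and down without replicate 1 of that group.

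Among the large subunit genes mrpl41 had the largest change. Its human protein has no bacterial counterpart. Its level was 6.95 and 7.27 in Control 0 hpa, 6.81 and 7.54 in TCDD 0 hpa, 5.93 and 5.38 in Control 6 hpa, and 4.50 and 5.98 in TCDD 6 hpa. All 4 arrays at 6 hpa were lower than all unamputated ones, and the gene fell by 1.69 ± 0.31 log2 units (limma SE, adjusted p = 0.0154). Mrpl52, whose protein is likewise known only from mitochondria, fell by 1.65 ± 0.36 (adjusted p = 0.0283). Mrpl19, the counterpart of a bacterial protein at the contact between the subunits, fell by 1.58 ± 0.38 (adjusted p = 0.0383), but without TCDD 6 hpa replicate 1 its difference was −1.18 with an adjusted p of 0.0552.

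Genes for proteins near the exit tunnel included called and uncalled ones. Mrpl4, whose bacterial counterpart lines the tunnel wall, fell by 1.33 ± 0.28 (adjusted p = 0.0258). Mrpl23, whose counterpart lies at the tunnel's mouth, fell by 1.33 ± 0.28 (adjusted p = 0.0265). Mrpl17, of the same region, fell by 1.45 ± 0.28 (adjusted p = 0.0182), to 2.66 to 3.54 at 6 hpa, near the array medians. Mrpl24, also of that region, fell by 0.96 ± 0.23 (adjusted p = 0.0375), a call lost without TCDD 6 hpa replicate 1 (−0.76, adjusted p = 0.0719). Mrpl22, whose bacterial counterpart lines the tunnel too, was at −1.0 ± 0.34 (adjusted p = 0.122), and mrpl45, near the exit in mammals, at −0.92 ± 0.27 (adjusted p = 0.0753), both with overlapping groups. At the peptidyl transferase region mrpl3 fell by 0.73 ± 0.16 (adjusted p = 0.0271). Mrpl2, which lies at that centre too, had a difference of −0.19 ± 0.18 (adjusted p = 0.595), with unamputated arrays at 5.57 to 6.20 and arrays at 6 hpa at 5.38 to 5.94, which overlap.

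The stalk of the large subunit recruits translation factors, and mrpl12 was its measured member. Its level was 5.94 and 7.13 in Control 0 hpa, 5.84 and 6.73 in TCDD 0 hpa, 5.44 and 5.17 in Control 6 hpa, and 4.0 and 5.25 in TCDD 6 hpa. The unamputated and 6 hpa arrays did not overlap, the replicates lay far apart in these groups other than Control 6 hpa, and the difference of −1.45 ± 0.38 missed the threshold (adjusted p = 0.0539). Other called genes of the large subunit were mrpl57, which fell by 1.53 ± 0.29, mrpl48, by 1.38 ± 0.22, and mrpl28, by 1.28 ± 0.24. Mrpl14, mrpl15, mrpl20, mrpl35, mrpl36, mrpl37, mrpl40 and mrpl53 were called too, with falls of 0.66 to 1.22. Of these mrpl14, mrpl15, mrpl20 and mrpl40 were not called without TCDD 6 hpa replicate 1. Mrpl40 lay at 2.76 to 3.39 at 6 hpa, near the array medians. In all, 19 of 38 mrpl genes were called lower, with a median over the 38 of −1.02. The uncalled ones were below 0 too.

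Of the mrps genes 9 of 21 were called lower, and the median over the 21 was −1.01. The uncalled ones were also below 0. Mrps12, the counterpart of the bacterial protein at the decoding site, lay at 7.00 and 7.12 in Control 0 hpa, 6.39 and 7.11 in TCDD 0 hpa, 5.21 and 5.62 in Control 6 hpa, and 4.65 and 5.89 in TCDD 6 hpa. No array at 6 hpa reached the lowest unamputated one, and the gene fell by 1.56 ± 0.27 (adjusted p = 0.0119). Mrps34, a mitochondrial addition to the small subunit, fell by 1.39 ± 0.31 (adjusted p = 0.0318). Mrps2, at the neck of the small subunit in bacteria, fell by 1.02 ± 0.24 (adjusted p = 0.0384), but was at −0.78 with an adjusted p of 0.0671 when TCDD 6 hpa replicate 1 was left out.

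The smallest adjusted p at 6 hpa among the 59 genes belonged to mrps31, whose protein sits in the small subunit and has no bacterial counterpart. Its level was 6.11 and 5.91 in Control 0 hpa, 5.66 and 5.95 in TCDD 0 hpa, 5.16 and 4.72 in Control 6 hpa, and 4.18 and 4.61 in TCDD 6 hpa. It fell by 1.24 ± 0.15 (adjusted p = 0.00388). Mrps23, another mitochondrial addition, fell by 0.91 ± 0.12 (adjusted p = 0.00479), from 3.91 to 4.43 in unamputated hearts to 3.09 to 3.64. These levels are near the array medians, and the table has no detection calls. The remaining mrps genes called lower were mrps11, mrps15 and mrps35, with falls of 1.01 to 1.1, and mrps18a. The calls of mrps15 and mrps35 were lost without TCDD 6 hpa replicate 1.

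A pair of genes named for the small subunit encode proteins that mammalian structures place in the large one. Mrps18a fell by 1.46 ± 0.22 (adjusted p = 0.00793), from 6.44 to 7.20 on the unamputated arrays to 5.10 to 5.64 at 6 hpa. Mrps30 had a difference of −0.23 ± 0.19 (adjusted p = 0.534), with overlapping groups. The smallest difference was that of mrps33 (−0.01 ± 0.12, adjusted p = 0.979), at 2.62 to 3.00 in unamputated hearts, below the median of every array.

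**Figure D2:**
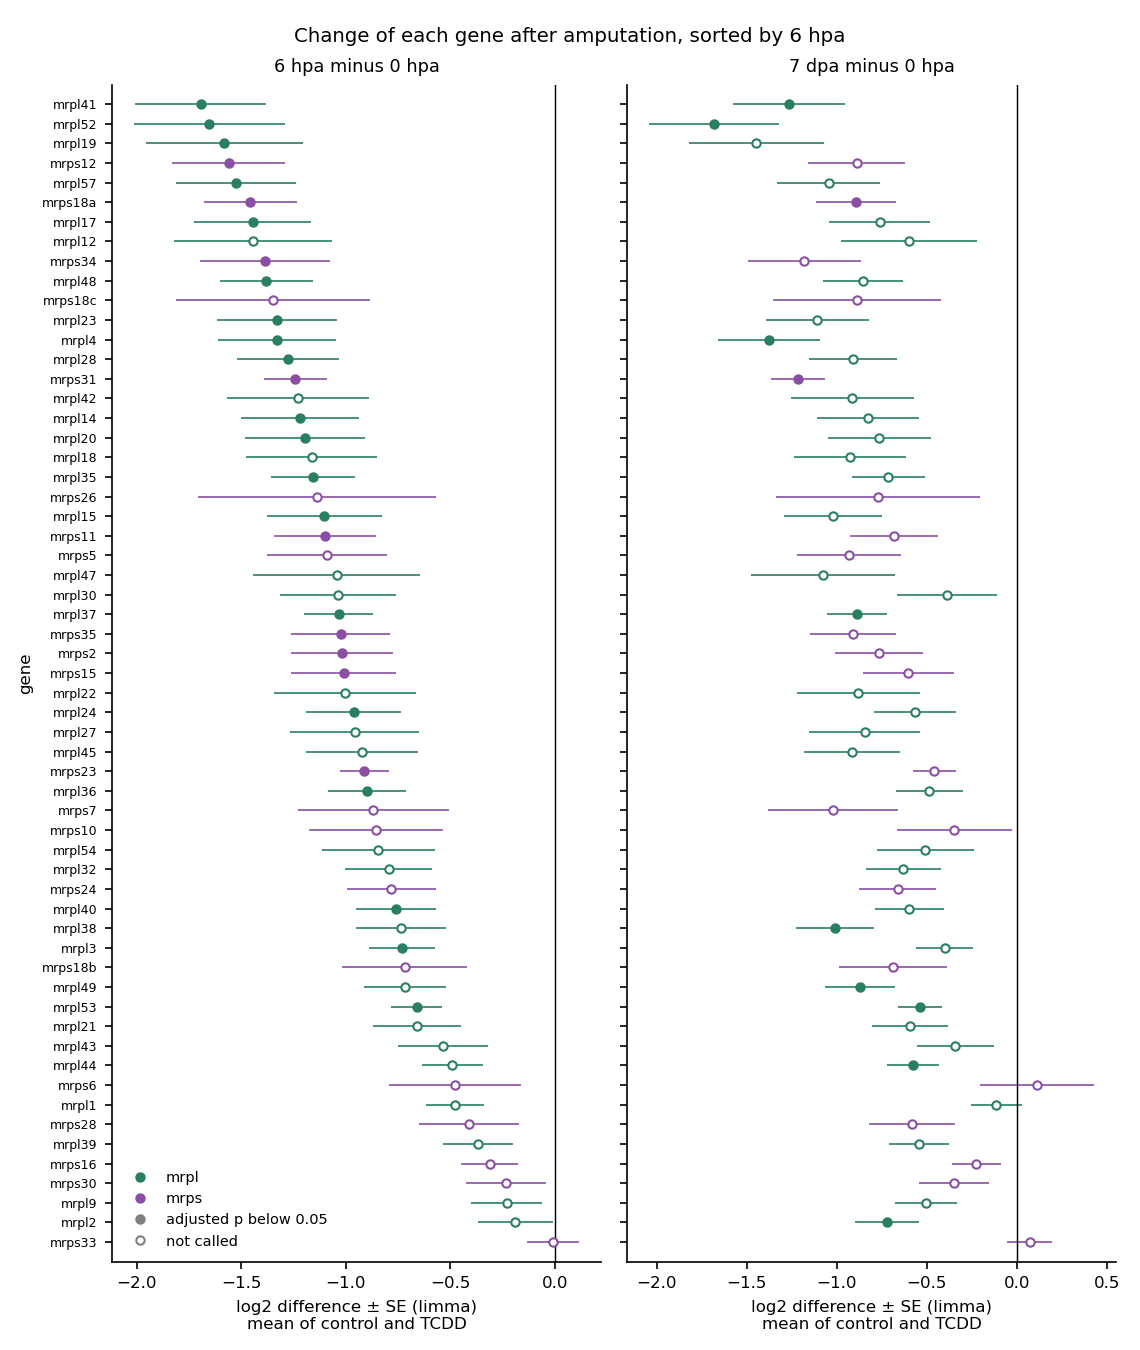
Log2 difference with its limma standard error (horizontal axis) for each of the 59 genes (vertical axis), at 6 hpa (left) and 7 dpa (right) against unamputated hearts, control and TCDD averaged. Filled points passed an adjusted p of 0.05: 28 genes at 6 hpa and 11 at 7 dpa, all below 0.

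At 7 dpa 11 of the 59 genes (18.6%) were called lower than in unamputated hearts and 0 were called higher. The share called lower was 2.75% of all probe sets, with 4.73% higher, and 8.33% of genes with a mean level above 5, against 20.5% of the mitochondrial ribosomal protein genes above 5. The median log2 difference was −0.76, against −0.02 over all probe sets and −0.08 over the genes above 5, and 57 genes were below 0, of which 47 had an unadjusted p below 0.05 (9.24% of all probe sets were lower at that level). In 37 genes the 4 arrays at 7 dpa all lay below the 4 unamputated ones (8.86% of all probe sets and 22.3% of the genes above 5). The count of 11 was 2 without either Control 0 hpa array, 1 without TCDD 0 hpa replicate 2, 3 and 4 without Control 7 dpa replicate 1 or 2, and 4 and 3 without TCDD 7 dpa replicate 1 or 2. It was 7 without either Control 6 hpa array. Without either array of TCDD 6 hpa it was larger, though that group enters this comparison only through the shared spread. The log2 differences stayed the same, so the added calls are not larger falls. Without replicate 1 none of the 11 calls was lost.

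Mrpl52 again lay low, at 5.38 and 5.34 in Control 7 dpa and 5.10 and 5.17 in TCDD 7 dpa, against 6.39 to 7.45 on the unamputated arrays. It fell by 1.68 ± 0.36 (adjusted p = 0.0249). Mrpl4 fell by 1.38 ± 0.28 (adjusted p = 0.0211) and mrpl41 by 1.26 ± 0.31 (adjusted p = 0.0431). Mrps31 had the smallest adjusted p (0.00215) with a fall of 1.22 ± 0.15, to 4.43 to 4.93, below every unamputated array.

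Also called lower at 7 dpa were mrpl38 (−1.01 ± 0.22, adjusted p = 0.0243), mrpl37 (−0.89 ± 0.16, adjusted p = 0.0138) and mrpl49 (−0.87 ± 0.19, adjusted p = 0.0291). These are 3 mitochondrial additions to the large subunit. Mrps18a fell by 0.89 ± 0.22 and mrpl53 by 0.54 ± 0.12. Mrpl2 fell by 0.72 ± 0.18 (adjusted p = 0.0436), to 4.83 to 5.45, and mrpl44, whose protein has the fold of a ribonuclease III, by 0.58 ± 0.14 (adjusted p = 0.0449). Mrpl12 had a difference of −0.60 ± 0.38 (adjusted p = 0.476), mrps12 of −0.89 ± 0.27 (0.0863), mrpl3 of −0.40 ± 0.16 (0.193), mrps2 of −0.77 ± 0.24 (0.101) and mrps30 of −0.35 ± 0.19 (0.39). The values above 0 were those of mrps33 (0.07 ± 0.12) and mrps6 (0.11 ± 0.32), the counterpart of a bacterial protein of the platform.

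By name 9 of 38 mrpl genes (median −0.79) and 2 of 21 mrps genes (median −0.69) were called at 7 dpa. Of the genes classed with a bacterial counterpart 17 of 36 were called at 6 hpa and 3 of 36 at 7 dpa, with medians of −1.01 and −0.72. Of those classed without, the misplaced mrpl47 included, 11 of 23 and 8 of 23 were called, with medians of −0.92 and −0.87. The differences between these classes were not tested. Members with brighter probe sets tended to have larger falls: across the 59 genes Spearman's rho of mean level with log2 difference was −0.52 at 6 hpa and −0.51 at 7 dpa. The genes share arrays, so these are descriptions, and probe brightness is not a measure of abundance between genes.

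At both times 7 genes were called, at 6 hpa alone 21, at 7 dpa alone 4 and at neither 27. The 2 times share the unamputated arrays, so the direct comparison of 7 dpa with 6 hpa is what tests a difference. In it 1 gene was called higher and 0 lower, where 8.11% of all probe sets were called higher and 4.1% lower. The gene was mrps23, at 3.57 and 3.74 in Control 7 dpa, 3.92 and 3.91 in TCDD 7 dpa, 3.64 and 3.49 in Control 6 hpa, and 3.09 and 3.10 in TCDD 6 hpa. Its control arrays overlapped and its TCDD arrays did not, and the difference was 0.45 ± 0.12 (adjusted p = 0.0394), all near the array medians. The call was lost when any single array was left out of Control 0 hpa, Control 6 hpa, Control 7 dpa or TCDD 7 dpa.

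The highest values of 7 dpa minus 6 hpa were those of mrpl12 (0.85 ± 0.38, adjusted p = 0.182), mrpl17 (0.68 ± 0.28, 0.152) and mrps12 (0.67 ± 0.27, 0.142). The lowest were those of mrpl2 (−0.53 ± 0.18, adjusted p = 0.0903), mrpl38 (−0.27 ± 0.22, 0.438) and mrpl9 (−0.27 ± 0.17, 0.331). The median over the 59 was 0.20, against 0.29 over the genes above 5, and 47 were above 0. Unadjusted p-values below 0.05 numbered 7 higher and 1 lower (15.2% and 13.1% of all probe sets). After TCDD 6 hpa replicate 1 was dropped the median was 0.02, with 29 genes below 0 and 0 called. After replicate 2 of that group was dropped it was 0.38, against 0.54 over the genes above 5.

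The comparisons within 1 treatment, with 2 arrays against 2, called few genes. Control 6 hpa against Control 0 hpa gave 0 calls of 59 (0.316% of all probe sets were called lower and 0.161% higher), with 33 lower at an unadjusted p below 0.05 (6.75% of all). All 59 were below 0 with a median of −0.88, and in 55 both arrays lay below both unamputated ones (22.1% of all probe sets, 40.6% of the genes above 5). The smallest adjusted p was that of mrpl53 (−0.94 ± 0.17, adjusted p = 0.0598). Mrps31 was at −1.07 ± 0.21 and mrps23 at −0.83 ± 0.17. Some genes were called without either array of TCDD 6 hpa, which enters only through the shared spread and leaves the log2 differences unchanged.

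Control 7 dpa against Control 0 hpa called mrps31 alone, with a fall of 1.1 ± 0.21 (adjusted p = 0.0382), where 0.348% of all probe sets were called lower and 1.65% higher. The median of the 59 was −0.76, 27 were lower at an unadjusted p below 0.05 (5.71% of all), and in 49 genes both arrays lay below both unamputated ones (22.4% of all probe sets, 35% of the genes above 5). Mrps23 was at −0.74 ± 0.17 (adjusted p = 0.0705) and mrpl37 at −0.97 ± 0.23 (adjusted p = 0.082). The call of mrps31 was lost without any single array of Control 0 hpa, Control 7 dpa, TCDD 0 hpa or TCDD 7 dpa. More genes were called without either array of TCDD 6 hpa, which enters only through the shared spread.

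TCDD 6 hpa against TCDD 0 hpa called 3 genes lower and 0 higher (1.41% and 0.464% of all probe sets): mrps31 (−1.41 ± 0.21, adjusted p = 0.0232), mrps23 (−1.0 ± 0.17, adjusted p = 0.0306) and mrpl35 (−1.50 ± 0.28, adjusted p = 0.0402). The median was −1.13, against −0.626 over the genes above 5. All 59 were below 0, 42 of them at an unadjusted p below 0.05 (11.1% of all). In 44 genes both arrays lay below both unamputated ones (20.8% of all probe sets, 46.1% of the genes above 5). On leaving out TCDD 6 hpa replicate 1 the median was −0.63 with 55 below 0 and the calls lost, against −0.13 over the genes above 5. Without replicate 2 the median of the 59 was −1.58, against −1.08 over the genes above 5. The 3 calls became 0 without any single array of Control 0 hpa or TCDD 0 hpa, and 2 without any single array of Control 6 hpa, Control 7 dpa or TCDD 7 dpa.

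TCDD 7 dpa against TCDD 0 hpa called mrps31 alone (−1.33 ± 0.21, adjusted p = 0.016), where 0.4% of all probe sets were called lower and 1.97% higher. The median was −0.72, 25 genes were lower at an unadjusted p below 0.05 (5.23% of all), and in 46 both arrays lay below both unamputated ones (21.4% of all, 32.4% of the genes above 5). Next in p were mrpl38 (−1.17 ± 0.30, adjusted p = 0.101) and mrpl4 (−1.52 ± 0.40, adjusted p = 0.105). The call was lost without any single array of TCDD 0 hpa or TCDD 7 dpa. More genes were called without either array of TCDD 6 hpa, which enters only through the shared spread. Taken by replicate number, which is not known to pair samples, medians of amputated minus unamputated were formed over the 59 genes. They were −0.68 and −1.08 in Control 6 hpa, −1.18 and −1.05 in TCDD 6 hpa, −0.60 and −0.91 in Control 7 dpa and −0.46 and −1.01 in TCDD 7 dpa. Over the genes above 5 they were, in the same order, −0.03 and −0.43, −0.996 and −0.23, 0.10 and −0.31, and 0.09 and −0.25.

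TCDD gave no call among the 59 genes with all arrays in the fit. Of all probe sets 0.0258% were called in either direction at 0 hpa, 0.0129% at 6 hpa, 0.116% at 7 dpa and 0.0516% in the mean over the 3 times. Counts at an unadjusted p below 0.05 were 0, 4, 1 and 2, against 1.45%, 2.72%, 3.97% and 2.92% of all probe sets. The median TCDD minus control difference was −0.12 at 0 hpa, −0.31 at 6 hpa, −0.10 at 7 dpa and −0.18 in the mean. The median 95% interval, not adjusted for the number of probe sets, reached 0.786 log2 units to either side at a single time and 0.454 in the mean. A call needs an adjusted p, so differences of this size and larger could go undetected in a typical gene.

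The value at 6 hpa rested on 1 array. If TCDD 6 hpa replicate 1 was left out the median was 0.16 with 22 genes below 0, and the genes above 5 went from −0.35 to 0.11. Leaving out replicate 2 instead left replicate 1 alone in the group. The median of the mitochondrial ribosomal protein genes was then −0.72, against −0.82 over the genes above 5. Some of these genes were called in that fit. The mean over the 3 times depended on these arrays too. Its median went from −0.18, with 55 genes below 0, to −0.04, with 37 below 0, when replicate 1 was left out. The genes above 5 went from −0.11 to 0.04. Without replicate 2 the median in the mean was −0.33, against −0.26 over the genes above 5. At 6 hpa the smallest p-values were those of mrps23 (−0.47 ± 0.17), mrpl53 (0.46 ± 0.17) and mrps31 (−0.54 ± 0.21), each with an adjusted p of 1.0.

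At 0 hpa the smallest p-values belonged to mrpl1, a counterpart of the bacterial L1 stalk protein (−0.39 ± 0.20), mrps23 (−0.30 ± 0.17) and mrpl37 (−0.33 ± 0.23). At 7 dpa they belonged to mrps33 (−0.40 ± 0.18), mrps31 (−0.43 ± 0.21) and mrpl3 (−0.42 ± 0.22). Mrpl1, at 2.66 to 3.43 on the unamputated arrays, and mrps33 lay near or below the array medians. In the mean over the 3 times mrps31 stood at −0.39 ± 0.12 (95% interval −0.67 to −0.11, unadjusted p = 0.0116 by limma), mrpl37 at −0.32 ± 0.13 and mrps23 at −0.17 ± 0.10, none of them called. The second probe set of mrps31 did not show this difference, at −0.02 ± 0.21 in the mean, −0.07 ± 0.36 at 6 hpa and 0.07 ± 0.36 at 7 dpa.

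**Figure D3:**
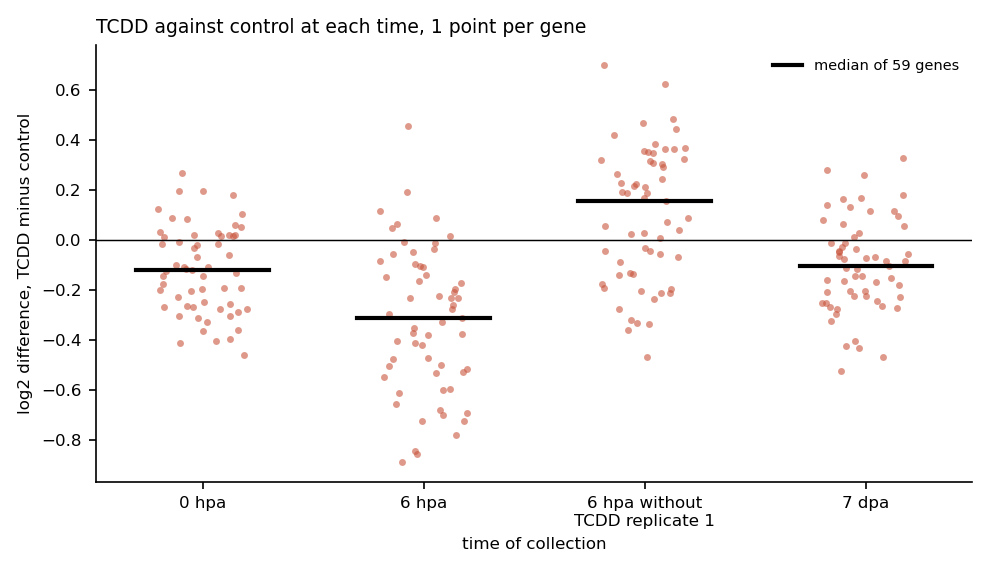
Log2 difference of TCDD minus control (vertical axis) for the 59 genes, 1 point per gene, at each time and at 6 hpa also without TCDD replicate 1 (horizontal axis), with the median as a bar. The medians are −0.12, −0.31, 0.16 without that array, and −0.10.

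Whether TCDD altered the response to amputation was tested as an interaction, with 0 calls among the 59 genes at either time (0.00645% of all probe sets were called at each) and 1 unadjusted p below 0.05 at each (1.14% and 2.01% of all probe sets). The median was −0.23 at 6 hpa, against −0.38 over the genes above 5. It was 0.04 at 7 dpa, and the median interval reached 1.11 to either side at both times. At 6 hpa mrpl53 was at 0.56 ± 0.24, mrpl35 at −0.68 ± 0.40 and mrpl4 at −0.85 ± 0.57. At 7 dpa mrps23 was at 0.56 ± 0.24, mrps33 at −0.51 ± 0.25 and mrpl1 at 0.57 ± 0.28, all genes with levels near or below the array medians. Without TCDD 6 hpa replicate 1 the median at 6 hpa was 0.20, and without replicate 2 it was −0.59. The genes above 5 then had medians of 0.10 and −0.85.

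The 10 other probe sets of these genes were all below 0 at both times. None was called at 6 hpa and 1 at 7 dpa, of mrps5 (−0.67 ± 0.14, adjusted p = 0.0196), whose brightest probe set was at −0.93 ± 0.29 (adjusted p = 0.0925). The second probe set of mrps31 was at −0.60 ± 0.25 at 6 hpa (adjusted p = 0.214) and −0.55 ± 0.25 at 7 dpa (adjusted p = 0.276), smaller than the first at both times. That of mrpl19 was at −1.16 ± 0.35 and −1.30 ± 0.35 (adjusted p = 0.0888 and 0.0615).

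Mitoribosomal proteins with other symbols moved in the same direction. Of 4 measured of 7 listed, 3 were called lower at 6 hpa and 2 at 7 dpa. Dap3, a GTP-binding protein of the small subunit, lay at 5.67 to 5.85 on the unamputated arrays, 5.03 to 5.20 at 6 hpa and 4.70 to 5.30 at 7 dpa, and fell by 0.63 ± 0.16 and 0.77 ± 0.16 (adjusted p = 0.0428 and 0.0198). Without TCDD 6 hpa replicate 1 the call at 6 hpa was lost (−0.65, adjusted p = 0.0701). Ptcd3, a pentatricopeptide repeat protein of the small subunit, fell by 1.07 ± 0.21 and 1.08 ± 0.21 (adjusted p = 0.0176 and 0.0157). Chchd1 fell by 0.99 ± 0.22 at 6 hpa (−0.92 and an adjusted p of 0.0685 with that array left out), and gadd45gip1 was at −1.1 ± 0.32 (adjusted p = 0.0721).

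The factors that work with the mitoribosome did not show this as a group, though most of their probe sets were dim. Of 7 measured translation factors (of 13 listed) 1 was called lower at each time, tufm, the elongation factor that brings aminoacyl-tRNA. Its arrays lay at 8.29 to 8.51 in unamputated hearts, 6.52 to 7.80 at 6 hpa and 7.14 to 7.67 at 7 dpa, with no overlap. It fell by 1.0 ± 0.20 and 0.97 ± 0.20 (adjusted p = 0.0216 and 0.023).

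Mtif3, an initiation factor, lay at 3.67 to 4.20 on the unamputated arrays and at 4.33 to 6.58 at 6 hpa, without overlap. Its difference of 1.48 ± 0.49 did not pass (adjusted p = 0.115) and was 0.92 without TCDD 6 hpa replicate 1. With that array left out 2 translation factors were called lower at 7 dpa.

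The median over the 7 translation factors was −0.15 at 6 hpa and −0.18 at 7 dpa. A further list held mitochondrial tRNA synthetases together with qrsl1 and gatb, which encode subunits of an amidotransferase acting on tRNA. Of its 7 measured genes (of 19) 0 were called at either time, with 1 unadjusted p below 0.05 at each and medians of −0.07 and −0.16. The median level of this list was 2.96 to 3.44 on all arrays, which is not shown to be above background. Of 9 assembly and rRNA modification factors (of 21) 0 were called at 6 hpa and 1 at 7 dpa, malsu1, which keeps the subunits of the human mitoribosome from joining early (−1.20 ± 0.30, adjusted p = 0.0468).

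A list of mitochondrial transcription and its control had 7 measured genes (of 12), among them the mitochondrial DNA polymerase polg. In it lrpprc, which stabilises mitochondrial messages, fell at both times. Its arrays lay at 6.32 to 6.69 in unamputated hearts, 5.02 to 5.88 at 6 hpa and 5.21 to 5.64 at 7 dpa. The falls were 1.12 ± 0.18 and 1.11 ± 0.18 (adjusted p = 0.00972 and 0.00771). Ppargc1b, a coactivator of mitochondrial biogenesis, fell by 1.12 ± 0.27 at 7 dpa (adjusted p = 0.0375) and was at −0.77 ± 0.27 at 6 hpa (adjusted p = 0.129). Tfam, which packages mitochondrial DNA, was at −0.24 ± 0.27 and −0.44 ± 0.27, and nrf1, a transcription factor of nuclear genes for mitochondria, at 0.20 ± 0.19 and −0.13 ± 0.19, none called.

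The nuclear subunits of oxidative phosphorylation, which assemble with the products of the mitoribosome, had values of similar size. Of 78 genes 32 were called lower at 6 hpa and 28 at 7 dpa, 0 higher, with medians of −1.09 and −0.98. Leaving out TCDD 6 hpa replicate 1, the median at 6 hpa was −0.71 with 48 lower, and at 7 dpa 69 were called lower and 2 higher. Ndufv1, of complex I, fell by 1.46 ± 0.18 at 6 hpa (adjusted p = 0.00388), and cyc1, of complex III, by 1.26 ± 0.20 and 1.41 ± 0.20 (adjusted p = 0.00946 and 0.00419). The 72 cytosolic ribosomal protein genes had medians of 0.04 and 0.24, with 1 gene higher at 6 hpa and 3 at 7 dpa and 0 lower. Of these rplp0, of the cytosolic stalk, rose by 0.76 ± 0.12 at 6 hpa (adjusted p = 0.0092). Their median at 6 hpa was 0.15 without that array, with 2 genes higher, and 5 were higher at 7 dpa. On every amputated array the mitochondrial ribosomal protein median lay below that of the cytosolic ribosomal proteins, both taken relative to Control 0 hpa. On unamputated arrays they ran from −0.46 to 0.20 and from −0.13 to 0.03. The 2 lists were not matched in brightness. Median levels were 10.73 to 11.37 for the cytosolic genes and 4.58 to 6.35 for the mitochondrial ones.

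**Figure D4:**
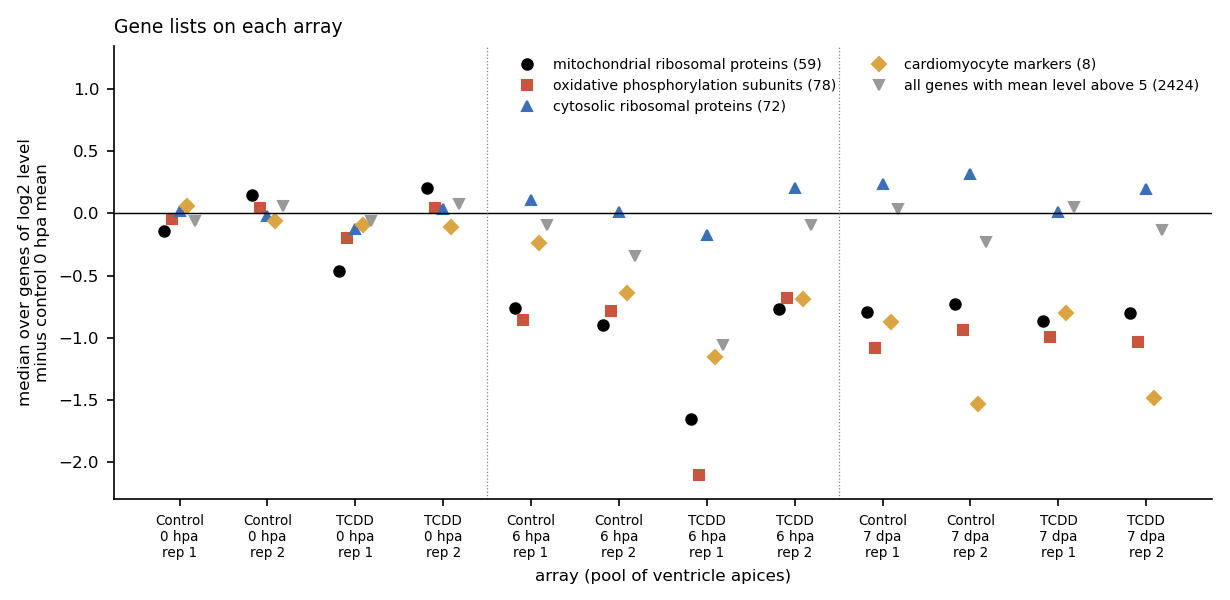
Median over the genes of each list of the log2 level minus the mean of Control 0 hpa (vertical axis), for each array (horizontal axis). On amputated arrays the mitochondrial ribosomal proteins lie at −1.65 to −0.73 and the cytosolic ribosomal proteins at −0.17 to 0.32. On unamputated arrays they lie at −0.46 to 0.20 and −0.13 to 0.03.

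Markers of the cell types in the pools moved with time as well. Of 8 measured cardiomyocyte markers (of 16) 0 were called at 6 hpa (median −0.78) and 5 were lower at 7 dpa (median −1.02). Their summed intensity was 28010 to 31680 on unamputated arrays, 15660 to 26120 at 6 hpa and 16830 to 21420 at 7 dpa. Of 8 measured erythrocyte markers (of 11) 7 were higher at 6 hpa (median 2.62) and 0 at 7 dpa, with 1 unadjusted p below 0.05 there. Their summed intensity was 5869 to 8344, 11480 to 14930 and 6615 to 8624.

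Leukocyte markers, 11 measured of 15, had 0 calls at 6 hpa with 0 unadjusted p-values below 0.05, and 7 higher at 7 dpa (median 2.19). Their summed intensity was 708.9 to 1283 on unamputated arrays, 267.2 to 1638 at 6 hpa and 1410 to 6615 at 7 dpa. Fibroblast and epicardial markers, 7 of 11, had 3 lower at 6 hpa (median −1.02) and 5 higher at 7 dpa (median 2.43), with sums of 371.5 to 615, 150.5 to 485.3 and 2982 to 4433. Epidermal markers, 12 of 13, had 1 lower at 6 hpa and 6 higher at 7 dpa, with sums of 961.3 to 1725, 287.9 to 1409 and 3155 to 9907. Relative to Control 0 hpa their median lay at −0.12 to 3.18 on the 7 dpa arrays. By that median not every pool rose.

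Endothelial markers, 6 of 10, had 2 lower at 6 hpa (median −0.92) and 0 called at 7 dpa (median −0.05), where 1 higher and 2 lower had an unadjusted p below 0.05. Their summed intensity was 345.1 to 514.7 on unamputated arrays, 90.96 to 216.8 at 6 hpa and 278.3 to 478.8 at 7 dpa. Klf2a, a flow-responsive factor of the endothelium, lay at 6.08 to 7.07, 3.28 to 5.04 and 6.88 to 7.74. The single markers differed in course. In the same order kdrl lay at 7.55 to 8.25, 5.19 to 7.19 and 5.97 to 7.24. Tie1 lay at 2.98 to 3.49, 3.12 to 3.56 and 3.19 to 3.37. Smooth muscle markers, 2 of 4, had 1 lower at 6 hpa and 1 higher at 7 dpa, with sums of 90.14 to 788.6, 56.82 to 82.75 and 386.5 to 1093. Pancreas and gut markers, 6 of 6, had 0 called at 6 hpa, with 1 higher and 1 lower at an unadjusted p below 0.05, and 1 lower at 7 dpa, with sums of 171.6 to 669, 123.5 to 190 and 58.47 to 89.51.

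With TCDD 6 hpa replicate 1 left out, the medians at 6 hpa were −0.54 for the cardiomyocyte, 2.51 for the erythrocyte, 0.77 for the leukocyte, −0.87 for the fibroblast and epicardial and −0.76 for the endothelial markers. Then 6 erythrocyte markers were higher, 0 epidermal markers were called, and 3 fibroblast and epicardial and 3 endothelial markers lower. The part of these cells in the mitochondrial ribosomal protein values was not tested. The RNA quality of TCDD 6 hpa replicate 1 was not tested as a part either.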

How the data were processed

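Expression was taken from the series table that the authors deposited, a linear intensity for each probe set on every array. Per the submitters' processing notes it comes from RMA, whose software and version the sources used here do not state. The log2 of each deposited value was taken before any test. RMA summarises probes and equalises arrays, which can narrow differences. From the 15617 probe sets, 115 control ones of the array maker were removed, and no filter was set. Genes were named from GEO's platform annotation and a RefSeq gene table. The authors' own comparison tables were not used.

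A model of 6 group means on 12 arrays was fitted with limma 3.58.1 in R 4.3.3 (6 residual and 2.87 prior degrees of freedom), and 13 comparisons were drawn, each adjusted by Benjamini-Hochberg over 15502 probe sets. For 2 groups, the standard error was 0.243 in the median. Among the mitochondrial ribosomal protein genes it was 0.3465 for TCDD against control at a single time. An exact permutation test of 2 against 2 cannot go below p = 0.333, so only the model was used. Errors are limma's standard errors. The number of arrays limits the precision.

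The genes and lists were chosen with earlier results of these data known. Named are up to 12 called genes by size in a comparison, the 3 with the smallest p (or highest and lowest difference) where fewer than 3 passed, and genes of known role in the ribosome; other called genes are also listed. Same-numbered arrays correlated in their deviations from the group means at −0.38 to 0.56 over all probe sets, so the numbers were not taken to pair the samples. The steps were tested on simulated data with independent noise. The simulation held no array-wide shift and no correlation between genes, so it does not cover calls that depend on them. Alternatives were other scalings, filters, variance models, probe set choices, the replicate block and leaving out each array. Promoter sequences and motifs were not used here.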

Additional observations from a re-analysis of the deposited data

How the results depend on the processing

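Of the genes named by rule or role, none that was called changed direction in any alternative tried; some that were not called did, among them mrpl2 at 6 hpa (0.18 after quantile normalization) and mrps31 in TCDD against control at 7 dpa (0.07 by its second probe set). Members called at 6 hpa against 0 hpa (main 28) were 20 to 34 with quantile normalization, centring, no dim probe sets, trend, weights, other probe set choices or the replicate block, 12 with only the groups compared, and 5 to 47 with 1 array left out. At 7 dpa (main 11) they were 18 with quantile normalization, with 1 probe set per gene and without the 25% dimmest probe sets, 7 with centring or with trend, 27 with array weights or only the groups compared, and 1 to 36 with arrays left out (1 to 32 in the planned fits). The count at 7 dpa against 6 hpa was 3 with quantile normalization, 0 without the dimmest, with trend, weights or only the groups compared, and 0 to 11 with arrays left out. For Control 6 hpa against Control 0 hpa it was 1 with quantile normalization, 11 with weights and 0 to 11 with arrays left out. For Control 7 dpa it was 5 with quantile normalization, 0 with centring, trend, only the groups compared or the lowest probe set, and 0 to 9 with arrays left out. For TCDD 6 hpa (main 3) it was 9 with quantile normalization, 8 without the dimmest, 6 with 1 probe set per gene, 0 with trend, weights or only the groups compared, and 0 to 36 with arrays left out. For TCDD 7 dpa it was 3 with quantile normalization, weights or only the groups compared, 0 with trend or the lowest probe set, and 0 to 10 with arrays left out. For TCDD against control at 6 hpa the main count was 0. Genes were called without TCDD 6 hpa replicate 2, which leaves replicate 1 alone in the group. The medians were then −0.72 over the 59 genes and −0.82 over the genes above 5. The other TCDD comparisons and both interactions stayed at 0. At an unadjusted p below 0.05 the counts were 33, 27, 42 and 25 for the 4 single time comparisons in the order above, 51, 47 and 8 for the 3 pooled ones, and 4, 1, 2, 1 and 1 for TCDD at 6 hpa, at 7 dpa, in the mean and for the interactions. The ranges include the fit added after seeing the data, and the cause of these shifts was not tested. At 6 hpa, leaving out a TCDD 6 hpa array also moved the share of all probe sets called. The shifts in count are thus not particular to these genes.

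The median over the 59 genes at 6 hpa ran from −1.23 to −0.76 with arrays left out, and was −0.79 after quantile normalization and −1.11 after centring. In TCDD 6 hpa against TCDD 0 hpa it ran from −1.58 to −0.63, in TCDD against control at 6 hpa from −0.72 to 0.16, and in the interaction at 6 hpa from −0.59 to 0.20.

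The replicate numbers are not known to pair samples. Deviations of same-numbered arrays correlated at 0.48 and 0.56 between the treatments at 0 hpa and 7 dpa. The correlation was −0.14 between the treatments at 6 hpa and −0.38 to 0.47 between times. With the replicate block 33 genes were called at 6 hpa, 17 at 7 dpa, 0 at 7 dpa against 6 hpa (mrps23, adjusted p = 0.0538) and 0 in Control 7 dpa against Control 0 hpa (mrps31, adjusted p = 0.0547). Without TCDD 6 hpa replicate 1 and with the block, chosen after seeing the data, 26 and 36 were called at 6 hpa and 7 dpa, and the median of the interaction at 6 hpa was 0.16. The motif search planned for promoters was not run. Levels near the array median have no detection call. With 2 pools a group, differences that are not small can go undetected. For TCDD against control at a single time the median 95% interval reached 0.786 log2 units to either side. For the interactions it reached 1.11.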
